A study of Saccharomyces cerevisiae with 6 samples.

Results

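The 9 genes described here encode parts of the Ras and protein kinase A (PKA) pathway of budding yeast, namely the Ras GTPases RAS1 and RAS2, their regulators CDC25, IRA1 and IRA2, the adenylate cyclase CYR1, and the PKA subunits BCY1, TPK2 and TPK3. They were chosen by name from the pathway, with earlier results of these data known. Each is represented by its probe set with the highest mean signal, and all 9 were measured among 5449 genes. Total RNA came from wild type Saccharomyces cerevisiae BY4741 and from the vps1 deletion mutant Y05072, without the dynamin-like GTPase Vps1, which acts in vacuolar sorting, endocytosis and peroxisome division. Cultures of both strains were kept in supplemented minimal medium at 30 degrees with no other treatment named, with 3 Affymetrix arrays per strain, independent biological replicates according to the series design. Each genotype is 1 strain, and whether it stems from 1 clone is not given in the sources used here. In RNA of whole cultures, fewer cells with a transcript and less transcript per cell cannot be told apart.

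In yeast, Ras proteins cycle between a GTP-bound active and a GDP-bound inactive form, and in the active form they stimulate adenylate cyclase. The cyclic AMP made by the cyclase binds the regulatory subunit of PKA and frees the catalytic subunits, which promote growth on glucose and repress the response to stress. A second input reaches the cyclase through the receptor Gpr1 and the G protein alpha subunit Gpa2.

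Values are log2 signals after all probe sets of the 6 arrays had been brought to 1 distribution, called the quantile scale below. In the values as deposited the deletion arrays were brighter than those of wild type, with a median log2 difference of 0.51 over all genes and of 0.48 over the 1746 probe sets whose names match no yeast gene. On the quantile scale the median difference of all genes was -0.041. VPS1 itself was at 10.32, 9.98 and 9.95 in wild type and at 2.54, 2.40 and 2.23 in the deletion strain, below the background level of 3.53 to 3.59 on every deletion array and at least 91.5-fold lower (limma adjusted p = 1.65e-07). All 6 markers of mating type a were above background on every array, with levels of 10.55 to 13.41 (wild type) and 9.30 to 12.53 (deletion strain). Of these, 4 fell. The 4 alpha-specific genes were also above background, at 4.13 to 8.43 and 3.74 to 8.80 in the same order, and 1 of them rose. Summed over each marker list, the linear signal was 29230 to 33820 (wild type) and 20400 to 21580 (deletion strain) for the a markers, and 437 to 487 and 582 to 614 for the alpha markers. Their part in the results below was not tested. HIS3, one of the marker loci of the BY4741 background, had mean levels of 10.78 without and 10.63 with the deletion. LEU2 was at 4.57 and 3.64, near background, and fell by 0.93 ± 0.14 (limma adjusted p = 0.00485), while MET17 (2.94 and 3.17) and URA3 (2.31 and 2.55) lay below background in both.

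RAS1 was lower in the vps1 deletion strain, and the other 8 genes did not pass the test. Its level fell by 0.79 ± 0.10 (log2, SE, n = 3 arrays per strain), which is 1.73-fold. The differences of the other 8 lay between -0.031 for BCY1 and 0.18 for TPK3, with adjusted p from 0.336 to 0.979 (limma moderated test, adjusted over all 5449 genes). A count of 1 in 9 is close to the share of all genes that passed, 13.0%, or 6.28% for genes that fell. When the replicate number entered the fit as a block, a pairing inferred from these data, RAS1 was again the sole gene of the 9 to pass. In that fit 30.8% of all genes passed, 14.4% higher and 16.4% lower. After a median shift in place of quantile normalization 256 genes rose and 535 fell, against 369 and 342. As deposited 8 of the 9 passed as higher, all but RAS1, beside 76.0% of all genes. The median difference of the 9 genes on the quantile scale was 0.030, against -0.041 over all genes.

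**Figure D1:**
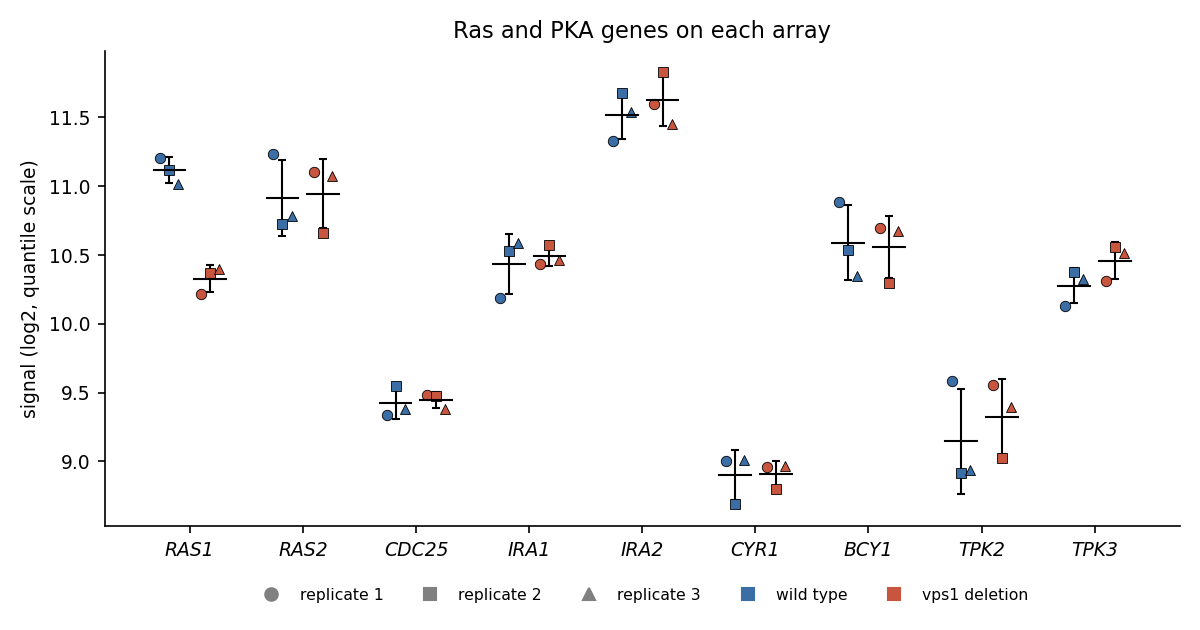
Signal of the 9 genes on each array (log2, quantile scale), wild type in blue and vps1 deletion in red, with a symbol for each replicate number, lines at the group means and error bars of 1 SD (n = 3). The RAS1 points of the deletion strain, 10.21 to 10.40, lie below those of wild type, 11.02 to 11.21, while the 2 strains overlap for each of the other 8 genes.

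The Ras GTPases are a pair of paralogs. RAS1 (YOR101W, chromosome XV) was at 11.21, 11.12 and 11.02 on the wild type arrays and at 10.21, 10.37 and 10.40 on the deletion arrays. Every deletion array lay below every wild type array, as held for 19.0% of all genes. The group means were 11.12 ± 0.09 (SD, n = 3) and 10.33 ± 0.10, and the spread within each strain was below the median SD of all genes, 0.153 for wild type and 0.128 for the deletion strain. The 95% interval of the difference, -1.02 to -0.56, corresponds to 0.493 to 0.680 of the wild type level (limma adjusted p = 0.00257, lower on 3 of 3 deletion arrays). Of the 342 genes that fell, 77 fell by more than RAS1. As deposited, the difference of RAS1 was -0.25 ± 0.10 and missed the threshold (limma adjusted p = 0.0503). The difference of RAS1 minus the median difference of all genes was -0.75 on the quantile scale and -0.76 as deposited. In the blocked fit its adjusted p was 0.00140.

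RAS2 (YNL098C, chromosome XIV), the Ras gene whose product is best known for filamentous growth, was at 11.24, 10.73 and 10.79 in wild type and at 11.10, 10.66 and 11.07 in the deletion strain. The strains overlapped, and replicate 1 was the highest array of both. Its difference was 0.030 ± 0.18 (SE, n = 3 per strain), with a 95% interval of -0.38 to 0.44. A change of RAS2 as large as that of RAS1 therefore lies outside its interval.

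Since probe sets differ in brightness, the level of 1 paralog cannot be set against that of the other, but the change of their difference between strains can be followed. RAS2 minus RAS1 within each array was 0.028, -0.39 and -0.23 on the wild type arrays and 0.89, 0.29 and 0.67 on the deletion arrays, so the 2 strains did not overlap. The mean moved by 0.82, from -0.20 ± 0.21 (SD, n = 3) to 0.62 ± 0.31, with a 2-sided exact permutation p of 0.1, the smallest that 3 against 3 arrays allow, and 0.3 after adjustment over 3 paralog pairs. IRA2 minus IRA1 moved by 0.055 (exact permutation p = 0.5, adjusted 0.75), and TPK3 minus TPK2 by 0.0023 (exact permutation p = 1, adjusted 1). In both of those pairs the strains overlapped.

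**Figure D2:**
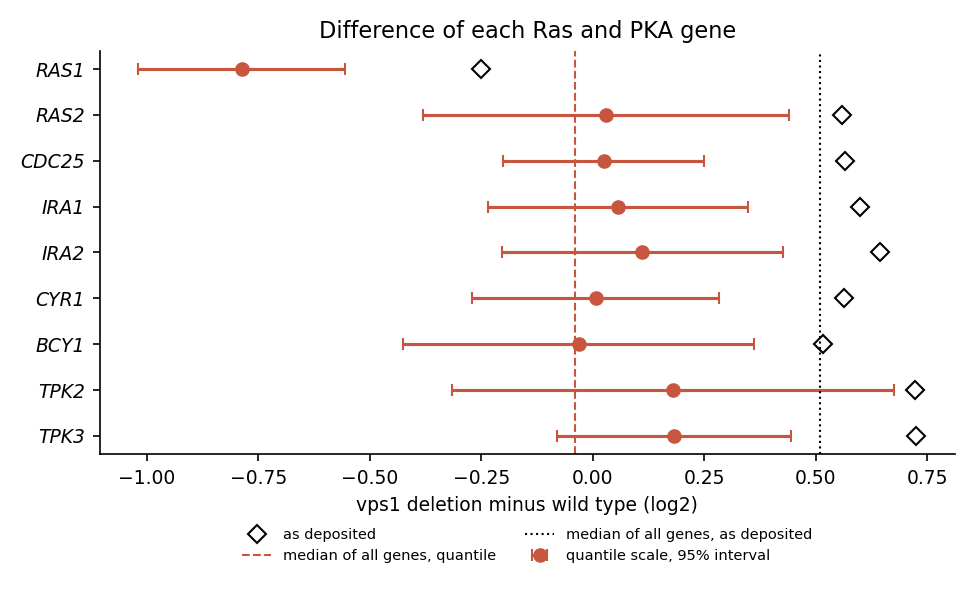
Difference of each gene between vps1 deletion and wild type (log2), with its 95% interval on the quantile scale in red and the value as deposited as open diamonds; vertical lines mark the median of all genes on either scale, -0.041 and 0.51. RAS1 lies to the left of the median on both scales, and the other 8 genes lie close to it.

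The regulators of Ras act in opposite directions. CDC25 (YLR310C, chromosome XII) encodes the exchange factor that loads Ras with GTP. It was at 9.34, 9.55 and 9.38 in wild type and at 9.48, 9.48 and 9.38 in the deletion strain. The deletion values lay within the range of the wild type values, and the difference of 0.025 ± 0.097 had a 95% interval of -0.20 to 0.25, the narrowest among the 9 genes.

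IRA1 and IRA2 encode large GTPase-activating proteins that switch Ras off and are the yeast counterparts of human neurofibromin. IRA1 (YBR140C, chromosome II) was at 10.19, 10.53 and 10.59 in wild type and at 10.44, 10.57 and 10.47 in the deletion strain. IRA2 (YOL081W, chromosome XV) was at 11.33, 11.68 and 11.54 in wild type and at 11.60, 11.83 and 11.45 in the deletion strain. All deletion values of IRA1 lay within the range of wild type, while 1 deletion value of IRA2 lay above all of its wild type values. The genes had differences of 0.056 ± 0.13 and 0.11 ± 0.14 and 95% intervals of -0.24 to 0.35 and -0.20 to 0.43.

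CYR1 (YJL005W, chromosome X), the adenylate cyclase that makes cyclic AMP, was at 9.004, 8.69 and 9.01 in wild type and at 8.96, 8.80 and 8.96 in the deletion strain. Its difference was the closest to 0 of the 9 genes, at 0.0064 ± 0.12 with a 95% interval of -0.27 to 0.28. Replicate 2 was the lowest array in both strains.

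BCY1 (YIL033C, chromosome IX) encodes the regulatory subunit, which holds PKA inactive until cyclic AMP binds. It was at 10.88, 10.54 and 10.34 in wild type and at 10.70, 10.30 and 10.68 in the deletion strain. The strains overlapped, with a difference of -0.031 ± 0.17 and a 95% interval of -0.42 to 0.36. The catalytic subunits TPK2 and TPK3 phosphorylate the targets of the pathway, and TPK2 is known for its role in filamentous growth. TPK2 (YPL203W, chromosome XVI) was at 9.59, 8.92 and 8.94 in wild type and at 9.55, 9.03 and 9.40 in the deletion strain. TPK3 (YKL166C, chromosome XI) was at 10.13, 10.38 and 10.33 in wild type and at 10.31, 10.55 and 10.52 in the deletion strain. Both differed by 0.18, but with unequal errors. For TPK2 the SE was 0.21 and the 95% interval -0.32 to 0.67, the widest of the 9 genes, while for TPK3 the SE was 0.11 and the interval -0.080 to 0.44 (limma adjusted p = 0.632 and 0.336). Between arrays of the same number TPK3 was higher in the deletion strain each time, by 0.18, 0.18 and 0.19, and TPK2 differed by -0.031, 0.11 and 0.46. With the replicate block the SE of TPK3 was 0.073 and it did not pass (limma adjusted p = 0.101).

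**Figure D3:**
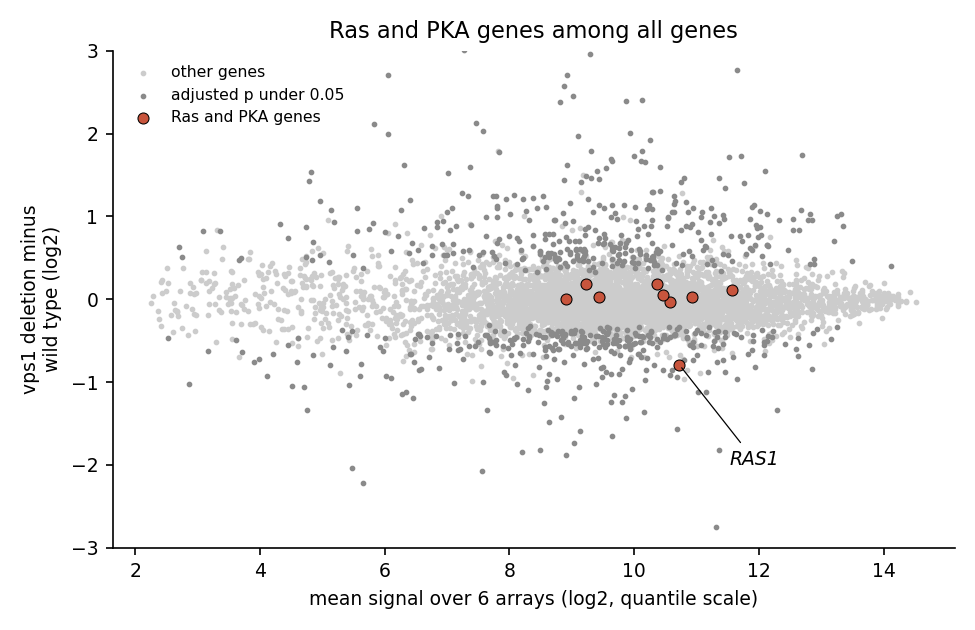
Difference between vps1 deletion and wild type (log2) against the mean signal over 6 arrays (log2, quantile scale) for all 5449 genes, with those past an adjusted p of 0.05 in dark grey and the 9 Ras and PKA genes in red; 13 genes lie outside the plotted range of -3 to 3. RAS1 is the red point at -0.79, and the other 8 lie near 0 at levels well above the background of 3.53 to 3.59.

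All 9 genes were above background on all 6 arrays, none of their probe sets carries a suffix that marks signal shared with other genes, and none of the 9 overlaps another gene in the yeast gene table. Among the 5344 other genes above background on every array, those whose values, centred on their own mean, lay nearest to RAS1 over the 6 arrays were DIP5, a permease for acidic amino acids, PDR16, a phosphatidylinositol transfer protein, and YBL086C. Their root mean square distances were 0.045, 0.070 and 0.077, against a median of 0.409. They fell by 0.85, fell by 0.80 and fell by 0.72, and their values share the arrays and the scaling with RAS1. A fall like that of RAS1 follows from choosing them by nearness to it.

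Genes that act beside the 9 in the pathway were described as 5 lists, of which 47 genes were measured. The lists were written with earlier results of these data known, so their shares are no independent test against those of all genes. Of the 47, 3 rose and 7 fell, a share of 21.3% against the 13.0% of all genes, of which 6.77% rose and 6.28% fell, and their median difference was 0.031. With the replicate number as a block 12 rose and 12 fell, against 30.8% of all genes. In place of 10, 16 passed without wild type replicate 1, 6 without wild type replicate 2. Leaving out deletion replicate 1, 2 or 3 gave 5, 6 and 6.

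In the branch of the glucose receptor 1 of 7 genes fell and none rose, a share of 14.3% near the 13.0% of all genes. RGS2, which stimulates the GTPase activity of Gpa2, was at 10.28, 10.18 and 9.96 in wild type and at 9.50, 9.44 and 9.77 in the deletion strain. All deletion values lay below those of wild type, and it fell by 0.57 ± 0.13 (SE, limma adjusted p = 0.0300). The call was lost without wild type replicate 2 and without vps1 deletion replicate 1 or 2 (limma adjusted p = 0.0989, 0.104 and 0.0910). The other 6, among them the receptor GPR1 and the phospholipase PLC1, had differences of -0.11 to 0.35. The highest of these was that of GPA2, 0.35 ± 0.16, where the strains overlapped and the test was not passed (limma adjusted p = 0.2). With the replicate block, where 14.4% of all genes rose, GPA2 passed (limma adjusted p = 0.0418).

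Of 8 measured genes that modify or regulate Ras, 2 fell and none rose, where 6.28% of all genes fell and 6.77% rose. RPI1, a regulator known to antagonise Ras and cyclic AMP signalling when present in many copies, was at 9.64, 9.34 and 9.21 in wild type and at 7.72, 7.66 and 7.38 in the deletion strain. It fell by 1.81 ± 0.15, which is 3.52-fold (limma adjusted p = 3.82e-04). RAM1, the beta subunit of the farnesyltransferase that attaches a lipid to Ras and to a-factor, was at 9.01, 8.84 and 8.95 in wild type and at 8.35, 7.97 and 8.41 in the deletion strain. All deletion values lay below the wild type values, and RAM1 fell by 0.69 ± 0.14 (limma adjusted p = 0.0169), while its partner subunit RAM2 differed by 0.0032 ± 0.14. With the replicate block, where 16.4% of all genes fell and 14.4% rose, 3 of the 8 fell and 1 rose, the added genes being the methyltransferase STE14 (-0.50, limma adjusted p = 0.00370) and TFS1, an inhibitor of Ira2 (0.59, adjusted p = 0.0274). The 6 genes that did not pass without the block, which include the palmitoyltransferase subunits ERF2 and SHR5 and the protease RCE1, had differences of -0.50 to 0.59.

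The phosphodiesterases, which break down cyclic AMP, had differences of opposite sign on the quantile scale, and were not tested against each other. As deposited, both differences were above 0 (0.97 for PDE1 and 0.0043 for PDE2). PDE1, of low affinity, was at 9.58, 8.92 and 9.11 in wild type and at 9.78, 9.35 and 9.75 in the deletion strain. PDE2, of high affinity, was at 10.79, 11.26 and 11.38 in wild type and at 10.22, 10.80 and 10.81 in the deletion strain. For both genes the strains overlapped, and neither passed the test, with differences of 0.42 ± 0.19 and -0.54 ± 0.21 (limma adjusted p = 0.198 and 0.139). Each of them differed in the same direction at all 3 replicate numbers, a pairing inferred from these same data. With the replicate block, where 30.8% of all genes passed, both passed (limma adjusted p = 0.0201 and 0.00284). SRV2, the cyclase-associated protein, differed by 0.20 ± 0.10 and did not pass with either fit.

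**Figure D4:**
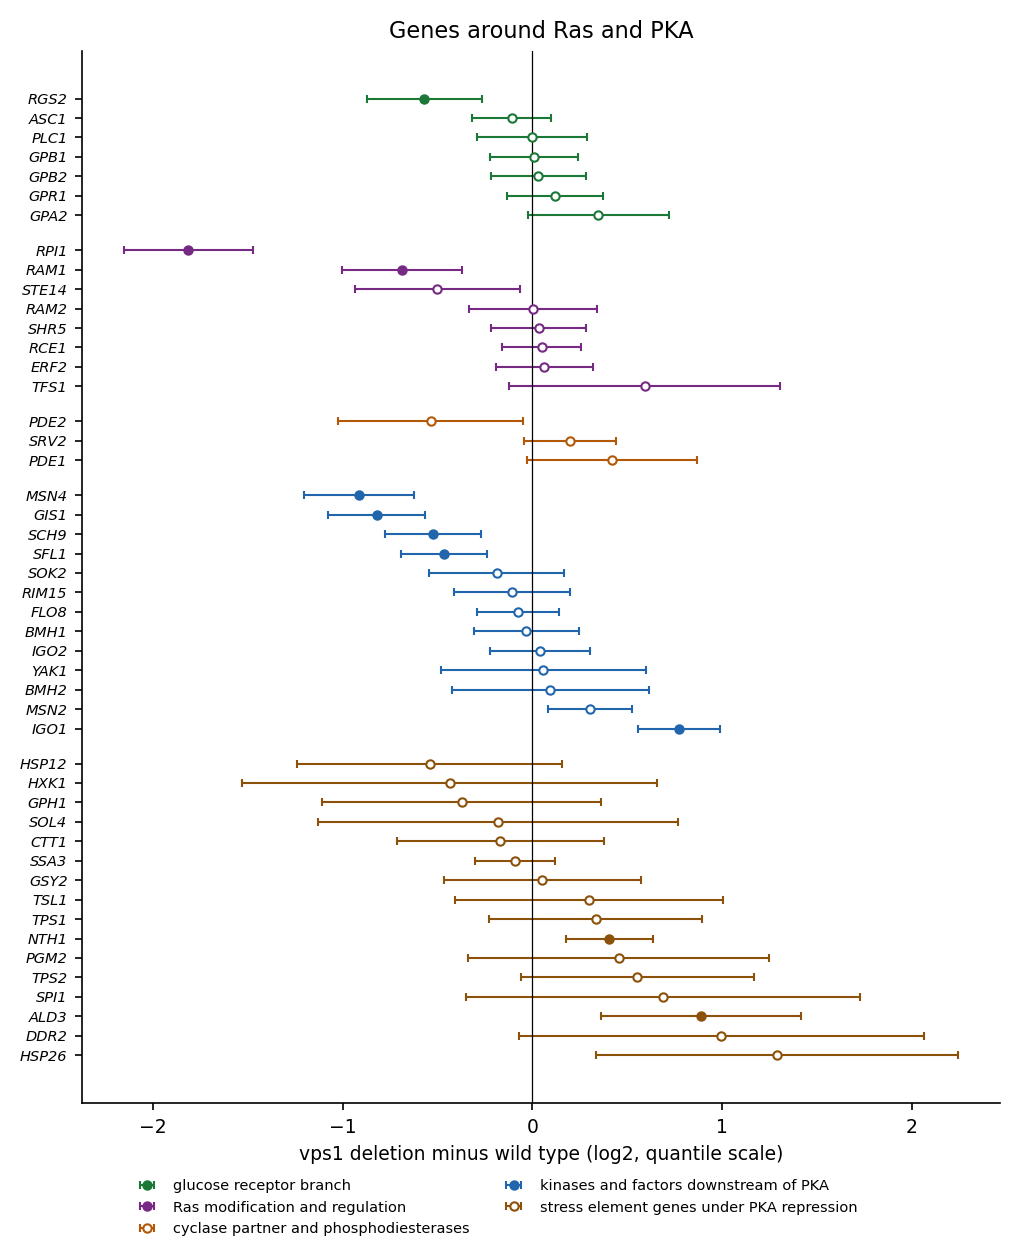
Difference between vps1 deletion and wild type (log2, quantile scale) with 95% intervals for the 47 measured genes of the 5 lists, in a colour for each list; filled points passed the test over all genes. RPI1 lies farthest to the left, at -1.81, and IGO1 leads the filled points of the downstream list on the right, at 0.77.

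Among 13 measured kinases and factors that act downstream of PKA or beside it, 4 fell and 1 rose, a share of 38.5% against 13.0% of all genes. The list was written with earlier results known, and 2 of its genes fell without any 1 of the deletion arrays. MSN4, a transcription factor that activates stress genes and that PKA keeps out of the nucleus, was at 8.39, 8.58 and 8.24 in wild type and at 7.57, 7.59 and 7.32 in the deletion strain. It fell by 0.91 ± 0.12 (limma adjusted p = 0.00359). Its paralog MSN2 had a difference of the opposite sign, 0.30 ± 0.09, with deletion values of 9.61 to 9.71 above the wild type values of 9.29 to 9.49. MSN2 did not pass (limma adjusted p = 0.0788) except with the replicate block (0.0242) and as deposited, where 14.4% and 76.0% of all genes rose. GIS1, a transcription factor of the diauxic shift controlled by the kinase Rim15, fell by 0.82 ± 0.11 (adjusted p = 0.00335). RIM15 itself differed by -0.11 ± 0.13. IGO1, a phosphatase inhibitor that Rim15 phosphorylates, was at 11.36, 11.43 and 11.51 in wild type and at 12.12, 12.25 and 12.25 in the deletion strain, and rose by 0.77 ± 0.09 (adjusted p = 0.00203), while its paralog IGO2 differed by 0.038 ± 0.11. The difference between the paralogs was not tested in either pair.

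SCH9, a kinase of nutrient signalling that acts in parallel to PKA, fell by 0.52 ± 0.11 (limma adjusted p = 0.0205), and SFL1, a repressor of flocculation genes that is controlled by PKA, fell by 0.47 ± 0.10 (adjusted p = 0.0212). For SCH9 the call was lost without vps1 deletion replicate 1, 2 or 3 (adjusted p = 0.0550, 0.0576 and 0.0906). For SFL1 it was lost without any of these (0.0841, 0.0501 and 0.0919) and without wild type replicate 2 (0.0821). As deposited, where the median of all genes is 0.51, both lay above wild type, by 0.020 and 0.083. Of the 7 pathway genes that fell, RPI1 and MSN4 also passed as lower on the deposited values, at -1.25 and -0.33.

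Genes with stress response elements are activated by Msn2 and Msn4 and repressed by PKA. Of 16 measured, 2 rose and none fell, a share of 12.5% against 13.0% of all genes, and their median difference was 0.32. NTH1, the neutral trehalase, was at 9.55, 9.38 and 9.42 in wild type and at 9.80, 9.81 and 9.97 in the deletion strain, and rose by 0.40 ± 0.10 (limma adjusted p = 0.0363). ALD3, an aldehyde dehydrogenase, was at 6.84, 6.29 and 6.98 in wild type and at 7.48, 7.33 and 7.98 in the deletion strain, and rose by 0.89 ± 0.23 (adjusted p = 0.0421). Both calls were lost without wild type replicate 2 and without each deletion array (adjusted p of 0.0737 to 0.135 for NTH1 and 0.0552 to 0.125 for ALD3), and that of NTH1 also without wild type replicate 3 (0.0872) and after a median shift in place of quantile normalization (0.166).

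With the replicate number as a block, 7 of the 16 stress element genes rose and 3 fell, against 14.4% and 16.4% of all genes. The small heat shock gene HSP26 (1.29 ± 0.14, SE of the blocked fit, limma adjusted p = 0.00107) and DDR2 (0.995 ± 0.11, adjusted p = 9.52e-04) had the largest blocked rises, while the membrane heat shock gene HSP12 (-0.54 ± 0.14, adjusted p = 0.0260), the hexokinase HXK1 (-0.44 ± 0.11, adjusted p = 0.0269) and the glycogen phosphorylase GPH1 (-0.37 ± 0.11, adjusted p = 0.0422) were lower. These 5 were chosen after their values were seen.

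Most of the stress element genes were lowest on replicate 2 of both strains. In 13 of 16 stress element genes, 81.2%, replicate 2 was the lowest array of both strains, as held for 18.6% of all genes and for 3 of the 9 Ras and PKA genes. The median deviation of the stress element genes from the strain mean was -0.49 on wild type replicate 2 and -0.41 on deletion replicate 2, where that of the 9 genes was 0.0047 and 0.029. Replicates 1 and 3 were less alike across strains, with medians for the stress element genes of 0.37 and 0.075 on replicate 1 and of 0.11 and 0.39 on replicate 3. RAS2, BCY1 and TPK2 were highest on replicate 1 in both strains and IRA2 and TPK3 on replicate 2. Such pairs of arrays share the replicate number and the scaling, and these counts describe the 6 arrays without a test.

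**Figure D5:**
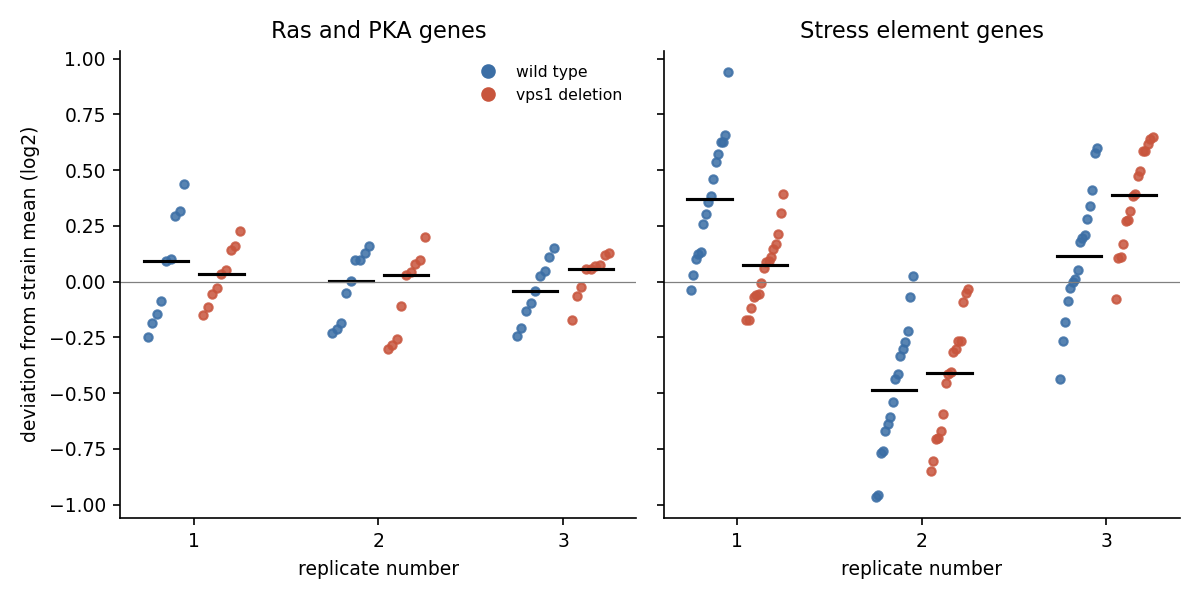
Deviation of each gene from its strain mean (log2, quantile scale) by replicate number, for the 9 Ras and PKA genes and the 16 stress element genes, wild type in blue and vps1 deletion in red, with black lines at the medians. The stress element genes lie low on replicate 2 of both strains, with medians of -0.49 and -0.41, while the Ras and PKA genes scatter around 0.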

How the data were processed

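Arrays of 3 wild type and 3 vps1 deletion cultures were compared; per the labels' protocols, 100 ng of total RNA per array was turned into biotinylated cRNA. The deposited values are log2 signals per probe set, and GCOS, RMA and limma are listed in the submitters' processing notes without versions or the part each played. Arrays have no read depth, so their number limits the precision.

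All 10928 probe sets were quantile normalized over the 6 arrays. The platform annotation, matched by gene number to the yeast gene table of assembly R64, named 5498 probe sets, which gave 5449 genes after the probe set with the highest mean was kept for each. The background level of an array is the 95th percentile of the 1746 probe sets named for no yeast gene. Each gene was tested with limma 3.58.1 in R 4.3.3 (moderated 2-sided test of vps1 deletion minus wild type). Benjamini-Hochberg adjustment ran over all genes, with a threshold of 0.05, and "rose" and "fell" mark genes past it. The fit without the replicate block was tested on simulated data with independent noise on each array, and the blocked fit was not.

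The 9 genes and the lists were chosen with earlier results of these data known. The genes named are the 9, VPS1, the marker loci and mating genes as checks, every list gene past the threshold, the 3 of smallest p in a list with none, and the 3 profiles nearest to RAS1. Other list genes given with values were chosen after their values were seen.

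The sample titles number the replicates 1 to 3 in both strains and state no pairing. Over genes, same-numbered arrays deviated together from their strain means, with correlations of 0.67, 0.65 and 0.29. Those between arrays of different numbers ranged from -0.63 to 0.23, the highest between wild type replicate 3 and deletion replicate 2. The numbers were taken to pair the arrays, and a fit with the replicate number as a block was run beside the main fit. This pairing is inferred from the same values that the blocked fit tests. The other alternatives were the deposited values, a median shift, normalization over yeast probe sets, the mean of probe sets, a background filter, another variance model, and leaving out each array.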

Additional observations from a re-analysis of the deposited data

How the results depend on the processing

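RAS1 was lower under all 13 alternatives and past the threshold in 12 of them. The exception was the deposited values, where it was -0.25 (limma adjusted p = 0.0503). The mean of probe sets, the background filter, the block and the other variance model leave the difference of RAS1 at -0.79. These could change only its error and p. Without each array in turn RAS1 ranged from -0.84 to -0.73 and passed each time. As deposited, with all genes shifted by 0.51, 8 of the 9 genes passed, as higher: RAS2 at 0.56, CDC25 at 0.57, IRA1 at 0.60, IRA2 at 0.64, CYR1 at 0.56, BCY1 at 0.52, TPK2 at 0.72 and TPK3 at 0.72. STE14 (0.043), PDE2 (0.0043), RIM15 (0.44), SCH9 (0.020), SFL1 (0.083), HXK1 (0.11) and GPH1 (0.18) also turned above 0 there. In all 4142 genes were called higher there and 52 lower (4194 together), against 369 and 342 on the quantile scale and 256 and 535 after a median shift. After a median shift, where the median of all genes was -0.15, RAS2 (-0.10), CDC25 (-0.094), IRA1 (-0.060), IRA2 (-0.016) CYR1 (-0.096), RAM2 (-0.11) and IGO2 (-0.079) turned below 0 without passing. Without 1 array RAS2 ranged from -0.064 to 0.19, CDC25 from -0.018 to 0.089, IRA1 from -0.067 to 0.13, CYR1 from -0.10 to 0.061 BCY1 from -0.15 to 0.12, RAM2 from -0.11 to 0.098 and IGO2 from -0.038 to 0.14, none of them past the threshold.

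Over all genes 711 passed, 1676 with the replicate block, and 315 to 791 without 1 array: 353 without wild type replicate 2, and leaving out deletion replicate 1, 2 or 3 gave 359, 445 and 315. The genes called lower were 120 to 355 and those called higher 195 to 436 without 1 array. Of the pathway genes 10 passed, 34 as deposited, 24 with the block, and 5 to 16 without 1 array. The block changed no call among the 9 genes. The change of RAS2 minus RAS1 was 0.68 to 0.98 over its alternatives. The paralog pairs were not refitted with the block, the background filter or the other variance model, which do not enter that test. The causes of these shifts in counts were not tested. With 3 arrays per strain, the 95% intervals of the 8 genes that did not pass span -0.42 to 0.67.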
